A study of Mus musculus with 18 samples.

Results

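The response described here is that of E0771 cells, a mouse mammary tumour line of C57BL6 origin, to the coactivator MRTFA, in 6 of the 18 libraries of a study that also holds B16F10 melanoma cells and the paralog MRTFB. The 3 libraries labelled MRTFA were set against the 3 labelled control, chosen by their labels alone. Controls carried the empty pRetrox vector, MRTFA cells carried the same vector with MRTFA, and cells of both groups, like every other cell in the study, received doxycycline at 500 ng/mL for 48 h in RPMI with 10% FBS. Doxycycline switches the transgene on, so it is shared by the 2 groups and is not what was compared. The comparison asks which genes respond when a mammary tumour line is made to express this coactivator. The labels do not give the species of the MRTFA sequence, whether the cells were a clone, or whether replicates came from separate cultures, so the p-values measure only the spread between these libraries.

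MRTFA binds globular actin in the cytoplasm. When actin polymerises, it is released, enters the nucleus and joins serum response factor (SRF) at a short element called the CArG box. Targets known from other work include actins, other cytoskeletal genes, smooth muscle genes and some genes that serum induces within minutes. The muscle genes are only one side of the response measured here. The account below therefore dwells on the genes that fell, on genes outside muscle that went from almost no reads to high levels, and on lists with few calls.

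The line was checked against markers of its label. Krt8, a keratin of simple epithelia, had 5689, 7794 and 6676 scaled reads in the controls, whereas Epcam, an epithelial surface protein, was between 27.0 and 69.1 and Cdh1 (E-cadherin) between 4.03 and 5.01. Of the 6 epithelial markers in the table only Krt8 was abundant. Fibroblast markers were mixed, with Pdgfra at 823 to 1007 and Dcn at 0 in all 3 controls. Melanocyte markers summed to 556 to 634 in the controls, against 580295 to 745083 in the B16F10 controls, so the lines are not crossed. Immune markers summed to 141 to 311 in the controls and 124 to 208 with MRTFA, and adipocyte Fabp4 stayed below 5 reads. Endothelial markers summed to 17.0 to 24.3 in the controls and 327 to 401 with MRTFA. The rise was in Vwf, from 5.03, 2.0 and 8.41 to 329, 383 and 311, while Pecam1 averaged 11.8 and 11.9. Several defining markers (Krt18, Ptprc, Kdr and Adipoq among them) were not analysed here.

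CArG boxes in promoters of genes that rose are shown first, since the CArG box is where SRF binds. They belong to a regulator of RNA decay, a receptor of the Wnt pathway, a membrane-bound GTPase-family protein and SRF itself, none of them a muscle structural gene. Each line gives 25 bases on either side of the box, 5′ to 3′ on the gene's strand, with the box in capitals, from the RefSeq promoter table (GRCm38.p6).
Zfp36 (chr7:28379252-28379311, minus strand): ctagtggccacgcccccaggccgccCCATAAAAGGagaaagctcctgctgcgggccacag
Lgr4 (chr2:109917476-109917535, plus strand): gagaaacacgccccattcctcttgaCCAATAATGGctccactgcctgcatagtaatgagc
Rnd3 (chr2:51149177-51149236, minus strand): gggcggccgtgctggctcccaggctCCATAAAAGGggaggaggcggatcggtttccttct
Srf (chr17:46556210-46556269, minus strand): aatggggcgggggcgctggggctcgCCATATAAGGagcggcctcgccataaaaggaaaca
The Zfp36 box ends 48 bases before the gene's start, that of Lgr4 136, that of Rnd3 90 and that of Srf 72. The Zfp36 and Rnd3 boxes are spelled alike, and the Srf window also holds, in lower case, a further box of that same spelling.

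The gene of each box shown rose. Zfp36, which encodes a protein that shortens the life of cytokine mRNAs, had 246, 332 and 396 scaled reads in the controls and 2584, 2377 and 2651 with MRTFA, a 7.81-fold ratio of means (log2 2.99 ± 0.21 SE, limma, Benjamini-Hochberg adjusted p = 2.29e-06). Lgr4, a receptor for R-spondins, had 304, 325 and 370 against 1735, 2161 and 1910 (5.81-fold, adjusted p = 2.33e-07). Rnd3, which lowers actomyosin contraction, had 1594, 1509 and 1798 against 6423, 7834 and 9529 (4.85-fold, adjusted p = 5.52e-07). In none of these 3 genes did any MRTFA library come near a control. Scaled reads are the deposited values, reads divided by a size factor of the library, and log2 changes throughout are fitted on log2 of the value plus 1, which understates changes of genes with few reads.

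The transgene was read first as a check of the labels. Mkl1, the older symbol for the gene of MRTFA (ENSMUSG00000042292.16, chromosome 15, 81012281 to 81190757, GRCm38), had 1124, 1514 and 1408 scaled reads in the controls and 12469, 16556 and 12160 in the libraries labelled MRTFA. All 3 labels therefore hold, at 10.2-fold and log2 3.34 ± 0.19 (adjusted p = 4.68e-07). Reads of the transgene and of the cell's own gene cannot be told apart. Srf, the partner, had 1684, 3317 and 3370 in the controls and 11632, 13443 and 11320 with MRTFA (4.35-fold, log2 2.18 ± 0.30, adjusted p = 0.000273). Its first control library was the lowest by a wide margin, and still all MRTFA values lay above all controls.

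Of 13189 genes tested, 5064 (38.4%) had an adjusted p under 0.05. By direction, 2677 (20.3%) rose and 2387 (18.1%) fell, but the sizes were lopsided. Increases of at least 2-fold numbered 1499 (11.4%) and decreases of that size 161 (1.22%). The filter on low values adds to the increases, since 780 genes passed it only through the MRTFA libraries and 546 of these rose. With a minimum value of 50 in the filter, 1018 increases and 96 decreases were at least 2-fold. The median change of the genes that rose was 1.15 on the log2 scale and that of the genes that fell was −0.46. Without MRTFA replicate 2 the counts were 1758 and 1502, with 981 increases of at least 2-fold. Scaled to the library totals they were 2356 and 3282, with upper-quartile scaling 2447 and 3026 and with a minimum value of 50 they were 2191 and 2353, and without MRTFA replicate 3 they were 2147 and 2230, so which direction held more genes depended on these choices. With library-total scaling the median of all genes moved from −0.02 to −0.11. Acta2 alone made up 0.0523% to 0.0750% of the reads in the controls and 1.99% to 2.36% with MRTFA, and may share reads with the other actin genes.

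The 2 directions also differed in where they lay on the scale of abundance. Among the 3186 tested genes with a mean under 100 scaled reads, 24.9% rose and 5.02% fell. Among the 576 genes with a mean over 10000, 18.4% rose and 37.8% fell, and their median was −0.19. In the ranges between, 14.3% fell from 100 to 1000 and 26.3% from 1000 to 10000. Nothing is read from the share that rose among the rarer genes, since 780 genes passed the filter on low values (at least 10 in at least 3 libraries) only through the MRTFA libraries, and 546 of these rose. Of 591 processed pseudogenes, 19 rose and 50 fell, and such copies may hold reads of their parent genes.

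**Figure D1:**
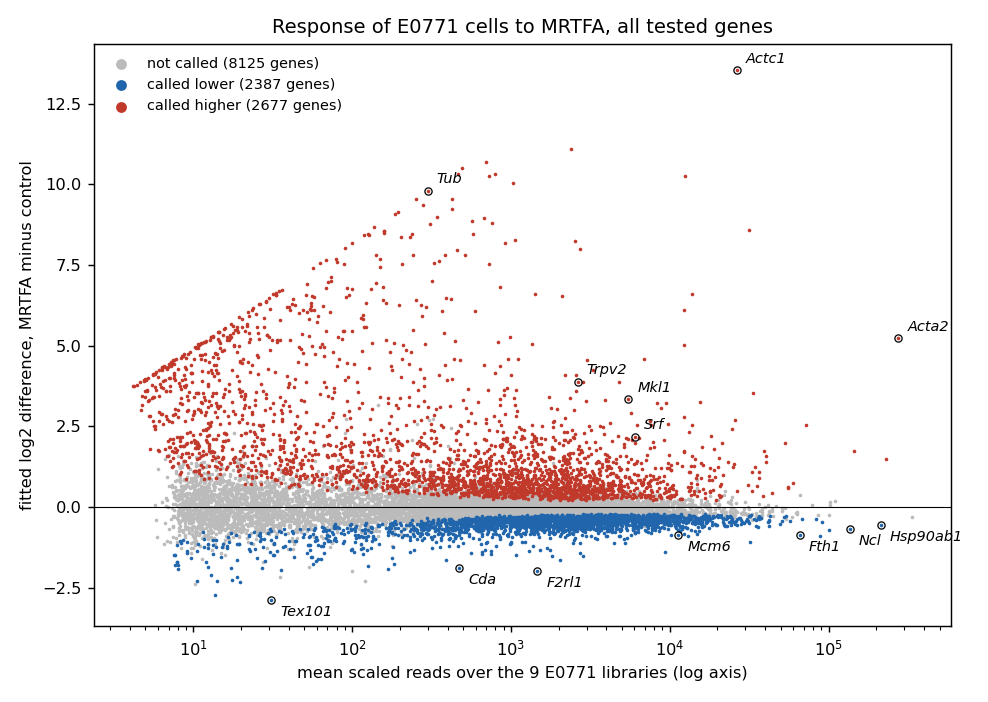
Log2 change with MRTFA against control (vertical axis) by mean scaled reads over the 9 E0771 libraries (horizontal log axis), 1 point per tested gene, coloured by call. Increases reach far higher than decreases, whose lowest value is −2.87, and genes called lower are concentrated at high means.

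The genes of DNA replication fell together. Of 45 tested, 35 fell and 1 rose, with a median of −0.51 against −0.02 over all genes, and the list's median lay between −0.52 and −0.47 in each of the 3 MRTFA libraries. Mcm7, a subunit of the helicase that opens origins, had 8625, 9234 and 8544 scaled reads in the controls and 5184, 5067 and 5117 with MRTFA (1.72-fold lower, log2 −0.78 ± 0.07, adjusted p = 1.66e-05). The groups were tight and far apart. Chaf1b, which loads histones behind the fork, fell 1.73-fold (adjusted p = 2.91e-05). Dut, which keeps uracil out of DNA, had 3529, 2956 and 2963 against 1554, 1686 and 1633 (1.94-fold lower, adjusted p = 4.77e-05). The one gene that rose was Gins2, from a mean of 840 to 1614. Of its exon bases 67.3% overlap Gse1 on the other strand. Without strand in the counting its reads cannot be assigned for certain. The Gse1 mean was 976 in the controls and 1003 with MRTFA (log2 0.11), and the part of Gse1 reads in Gins2 was not tested. In bulk RNA fewer cells in a state and less RNA per cell cannot be told apart.

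Enzymes that make nucleotides followed. In the list of nucleotide and one-carbon synthesis 25 of 42 fell and 3 rose, with a median of −0.37. Paics, which carries out consecutive steps of purine synthesis, had 14400 to 16250.5 scaled reads in the controls and 7757 to 9237 with MRTFA (1.78-fold lower, adjusted p = 8.09e-05). Among those that rose was Mtr, methionine synthase (1.57-fold, adjusted p = 0.00173).

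Mitotic genes moved the same way with more exceptions: 32 of 54 fell and 4 rose, median −0.33. Ccnb2, a mitotic cyclin, fell 1.65-fold from 2639 ± 230 to 1598 ± 117 (SD, n = 3, adjusted p = 0.000183). Kif23, a kinesin of the midzone, fell 1.59-fold and Ncapd2, a condensin subunit, 1.52-fold. Among the 4 that rose were Anln (anillin), an actin-binding scaffold of the cleavage furrow, by 1.29-fold (adjusted p = 0.00353), and Cenpe, a kinetochore kinesin, by 1.40-fold (adjusted p = 0.00156).

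Cyclins, CDK inhibitors and E2F genes fell more often than they rose. Ccne2, an S-phase cyclin, fell 1.77-fold from 2881 ± 119 to 1631 ± 176 (adjusted p = 0.00022), and Tfdp1, the partner of E2F factors, fell 1.49-fold (adjusted p = 0.000324). Rb1, the retinoblastoma protein that restrains E2F, rose 2.07-fold from 290 ± 78.9 to 601 ± 111 (adjusted p = 0.00386), although part of its exons overlap Lpar6, whose own value rose with it. Of the 31 cyclins, CDK inhibitors and E2F genes, 10 fell and 4 rose, or 2 without MRTFA replicate 1 or MRTFA replicate 2. The shares over all genes tested were 18.1% that fell and 20.3% that rose.

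DNA repair genes fell in 26 of 60 cases and rose in 3 (median −0.27), with 16 falling once MRTFA replicate 2 was left out. Brip1, a helicase that works with BRCA1, fell 1.77-fold (adjusted p = 0.000151). The 3 that rose included Wrn, the Werner helicase (1.49-fold, adjusted p = 0.00149), and Ercc1, a nuclease subunit of excision repair (1.59-fold, adjusted p = 0.00364).

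Genes of ribosome production fell. Of 62 ribosome biogenesis genes 43 fell, with a median of −0.37, and 0 rose by limma at an adjusted or an unadjusted p under 0.05, by edgeR or by DESeq2. The list made up 2.16% to 2.33% of all reads in the controls and 1.42% to 1.65% with MRTFA. Ncl (nucleolin, chromosome 1, 86344719 to 86359400), the major nucleolar protein, had 171890, 141789 and 160201 scaled reads in the controls and 87319, 97098 and 115235 with MRTFA (1.58-fold lower, log2 −0.67 ± 0.13, adjusted p = 0.00248). Npm1 (nucleophosmin), which carries subunits out of the nucleolus, had 133485, 109197 and 111008 against 60566, 73869 and 82325 (1.63-fold lower, adjusted p = 0.00264). For both genes the ranges were wide in each group and did not overlap. Nop16 and Nolc1, assembly factors of the nucleolus, fell 1.57-fold and 1.5-fold.

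Of the 79 cytosolic ribosomal protein genes, the median change was −0.22, 33 fell and 0 rose by limma at either p, by edgeR or by DESeq2. Over all tested genes 18.1% fell. Among all those with a mean over 10000 scaled reads 37.8% fell, with a median of −0.19, so abundant genes of any kind often fell. The ribosomal protein share of all reads went from 5.13% to 5.58% in the controls down to 4.20% to 4.38%. The count of 33 is fragile, since 14 fell without MRTFA replicate 1 and 14 without control replicate 1. Rpl3, of the large subunit, fell 1.34-fold (adjusted p = 0.00356) and Rpl14 1.37-fold (adjusted p = 0.00353). Among 44 translation factors 19 fell and 1 rose (median −0.24), with 11 falling without MRTFA replicate 1 and 29 with library-total scaling. Eif2b5, a subunit of the exchange factor that recycles eIF2, fell 1.37-fold (adjusted p = 0.0023). Eef1a1, the most abundant elongation factor, had 335409 to 387639 in the controls and 252272 to 312348 with MRTFA, which did not pass the test (adjusted p = 0.0874). Ribosomal protein genes and others as abundant as these have many processed pseudogenes that may share their reads.

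The mitochondrial ribosome, which is encoded in the nucleus, was lower as well. Of 75 mitochondrial ribosomal protein genes 33 fell and 3 rose (median −0.30), or 21 without MRTFA replicate 2. Mrpl42 fell 1.56-fold from 4199 ± 480 to 2689 ± 285 (adjusted p = 0.000739). Of the 7 mitochondrially encoded genes 0 were called in either direction by limma at an adjusted or unadjusted p under 0.05, by edgeR or by DESeq2. Their list median was highest in replicate 1 of every E0771 group (0.45 in the control and 0.28 with MRTFA, relative to the control mean), which widens the spread behind this count. Nuclear genes of the respiratory chain fell in 18 of 72 cases and rose in 3. Over all tested genes 18.1% fell, and 26.3% of those with a mean of 1000 to 10000. The respiratory chain count depended on the scaling, since 32 fell with upper-quartile and 35 with library-total scaling. Only 9 to 10 fell without MRTFA replicate 1, MRTFA replicate 2 or control replicate 1.

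Splicing factors fell in 32 of 63 cases and rose in 6, with a median of −0.26, and 3 rose without MRTFA replicate 2 or MRTFA replicate 3. Prpf19, a scaffold of the activated spliceosome, fell 1.44-fold and Hnrnpf, which binds G-rich RNA, also 1.44-fold. Members that rose included regulators known for tissue-specific splicing. Mbnl2, a muscleblind protein, had 2272, 2276 and 2776 scaled reads in the controls and 6033, 6626 and 7762 with MRTFA (2.79-fold, adjusted p = 6.23e-06). Khdrbs3, a STAR-family RNA-binding protein, was at 0 in every control and at 52.8, 44.6 and 21.9 with MRTFA, which is at least 41.0-fold higher against a floor of 3 reads over the group.

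**Figure D2:**
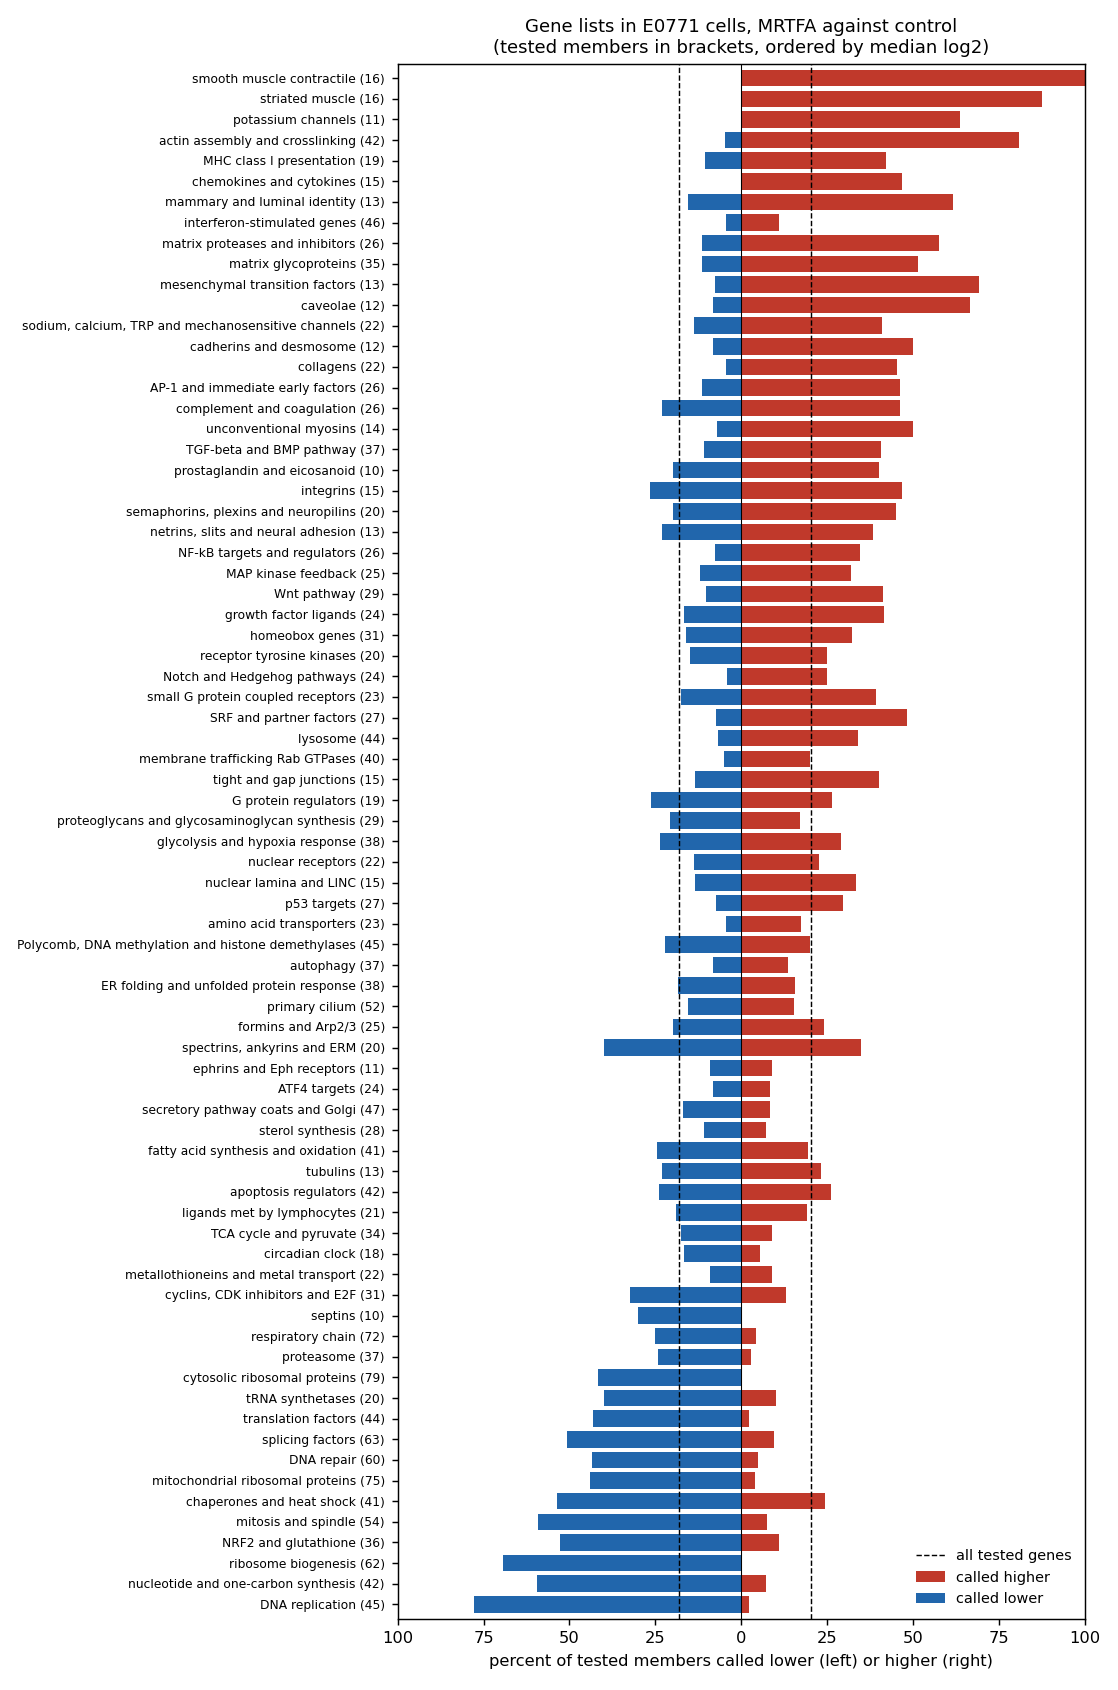
Percent of tested members called higher (bars to the right) and lower (bars to the left) in each gene list shown, with the number tested in brackets, ordered by the median log2 change; dashed lines give 20.3% and 18.1% over all tested genes. Replication, nucleotide synthesis and ribosome biogenesis stand at the bottom with bars to the left, and muscle, potassium channels and actin assembly at the top with bars to the right.

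Protein folding genes fell more often than they rose. Of 41 chaperones and heat shock genes 22 fell and 10 rose (median −0.30). Over all genes tested 18.1% fell and 20.3% rose, so the count that rose was near that share. The list's share of all reads went from 2.92% to 3.19% down to 2.10% to 2.38%. Hsp90ab1, the constitutive HSP90, had 250173, 235984 and 241215 scaled reads in the controls and 150838, 171118 and 176506 with MRTFA (1.46-fold lower, adjusted p = 0.0036). Fkbp5, an HSP90 cochaperone of steroid receptors (chromosome 17, 28399094 to 28517527), fell the most, from 7145, 7213 and 5919 to 3235, 3144 and 2887 (2.19-fold lower, log2 −1.13 ± 0.10, adjusted p = 1.16e-05). The genes that rose included chaperones of muscle. Hspb6, a small heat shock protein of smooth muscle, had 369, 382 and 321 against 9349, 8360.0 and 7409 (23.4-fold, adjusted p = 6.18e-09). Unc45b, the myosin chaperone, was at 0 in every control and at 423, 428 and 382 with MRTFA, at least 421-fold higher. Dnajb4, a cochaperone of HSP70, rose 2.65-fold (adjusted p = 2.98e-06).

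Antioxidant genes were lower too. Of 36 genes in the NRF2 and glutathione list 19 fell and 4 rose (median −0.34), with 2 rising without MRTFA replicate 1, MRTFA replicate 2 or control replicate 3. Srxn1, sulfiredoxin, had 10018, 9046 and 9286 scaled reads in the controls and 5827, 6120 and 5241 with MRTFA (1.65-fold lower, adjusted p = 0.000137). Prdx6, a peroxiredoxin, fell 1.66-fold and Mgst2, a microsomal glutathione transferase, 1.87-fold. Fth1, the heavy chain of the iron store ferritin, fell 1.84-fold from 80258 ± 15607 to 43529 ± 4034 (adjusted p = 0.0013). One transferase went far in the other direction. Gstt1 (chromosome 10, 75783813 to 75798584) had 132, 172 and 86.9 in the controls and 2971, 3374 and 2779 with MRTFA (23.3-fold, log2 4.58 ± 0.21, adjusted p = 1.56e-07). Gpx1, a glutathione peroxidase, rose 1.76-fold (adjusted p = 0.00219).

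The list medians in single libraries show which of these shifts were uniform. Medians of replication, ribosome biogenesis and splicing lay below all controls in all 3 MRTFA libraries. Those of the interferon and mitochondrially encoded lists overlapped between the groups.

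**Figure D3:**
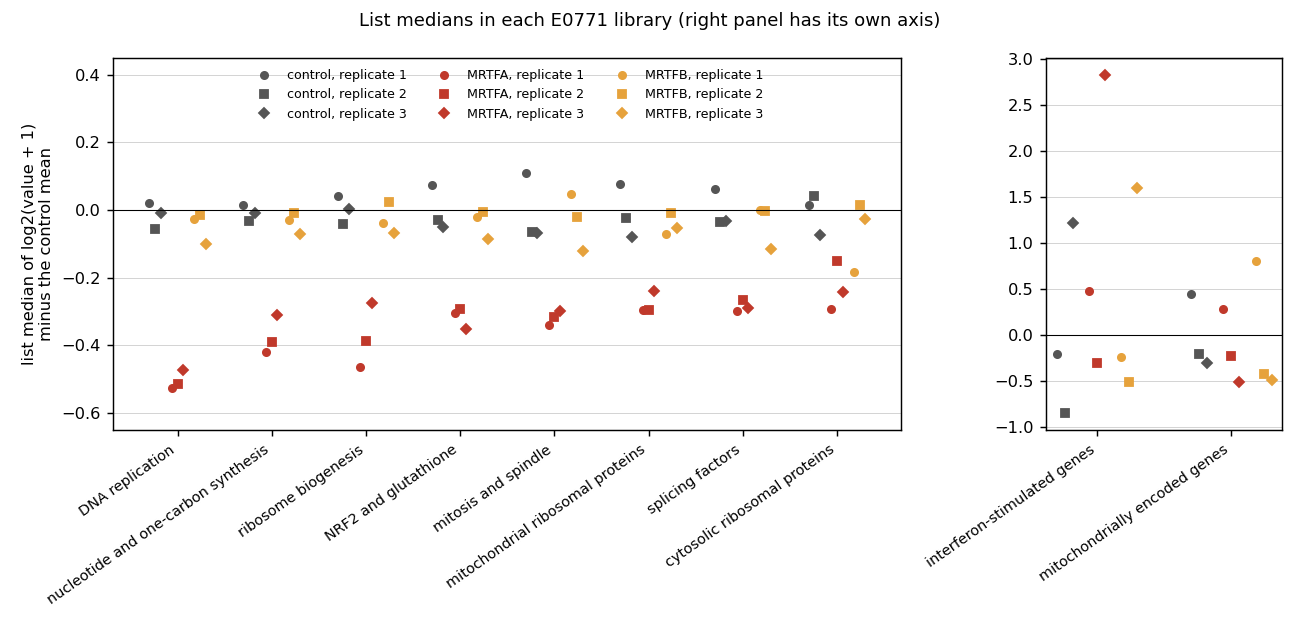
Median over each list of log2(value + 1) minus the control mean (vertical axis) in each of the 9 E0771 libraries, coloured by group and shaped by replicate; the right panel has its own axis. In the left panel MRTFA libraries lie below controls in every list shown, and below MRTFB in all but cytosolic ribosomal proteins, while the interferon list in the right panel is highest in replicate 3 of every group.

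Only 8 genes fell by at least 4-fold. The deepest fall was that of Tex101, a surface protein of germ cells, from 74.5, 43.1 and 106 to 6.97, 7.43 and 12.5 (log2 −2.87 ± 0.50, adjusted p = 0.00116). With MRTFB it averaged 9.37 ± 5.36 (SD, n = 3), and the difference between MRTFA and MRTFB did not pass the test (log2 0.08, adjusted p = 0.92). Among genes with more reads, Lgals3 (galectin-3, a lectin that binds surface glycans, chromosome 14, 47367751 to 47386160) had 12022, 13136 and 10751 in the controls and 4368, 4685 and 4552 with MRTFA. That is 2.64-fold lower (log2 −1.40 ± 0.10, adjusted p = 2.74e-06). Every control value lay far above every MRTFA value.

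Other falls were of secreted and surface proteins. Wfdc2, a secreted protease inhibitor of epithelia, had 2387, 2636 and 3560 against 781, 742 and 1286 (3.06-fold lower, adjusted p = 0.00117). Spp1 (osteopontin), a matrix phosphoprotein, had 1238, 1259 and 1863 against 426, 470.0 and 657 (2.81-fold lower, adjusted p = 0.00025). In both genes replicate 3 was the highest library of its group. Afp, the fetal serum protein, fell 3.07-fold from 98.1 ± 14.7 to 32 ± 9.98 (adjusted p = 0.00127).

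Genes best known from blood cells went both ways, with those given here named without a list. Grap2, an adaptor of T cell receptor signalling, had 72.5, 95.1 and 73.8 against 26.9, 27.9 and 18.8 (3.28-fold lower, adjusted p = 0.000377). Itgb2, the integrin chain of leukocytes, had 44.3, 49.1 and 46.7 against 16.9, 10.2 and 8.36 (3.95-fold lower, adjusted p = 0.000301). The immune marker sums given above overlapped between the groups. One of the 3 immune markers tested, Lyz2 (lysozyme), fell from 140, 97.1 and 183 to 91.6, 70.6 and 90.9 (adjusted p = 0.0395), a call lost when any of 5 of the 6 libraries was left out. The part of any other cell type in these changes was not tested. The opposite held for Lcp2, another adaptor of T cell receptor signalling, which rose from 0, 0 and 3.74 to 945, 1279 and 1574 (log2 9.53 ± 0.75, adjusted p = 4.55e-06). Cd5l, of macrophages, and Siglecf, of eosinophils, had at most 3 reads over the controls and means of 155 and 70.7 with MRTFA.

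The 6 largest losses in mean scaled reads included Hsp90ab1, Ncl, Npm1 and Fth1, given above. Another was Vim (vimentin), the mesenchymal intermediate filament, which had 102473, 122243 and 96466 scaled reads in the controls and 58376, 59204 and 54423 with MRTFA (1.87-fold lower, log2 −0.89 ± 0.12, adjusted p = 0.000165). No value of one group reached the other. Keratins rose in 6 of 7 tested cases, but 2 of the 7 passed the filter only through the MRTFA libraries, and 4 rose without MRTFA replicate 2. Krt8 rose 2.31-fold from 6720 ± 1053 to 15549 ± 1021 (adjusted p = 0.00016), Krt16, a keratin of stressed epidermis, 5.22-fold, and Krt7, of simple ducts, 3.77-fold. One of the 6 is Krt20, which was almost silent in the controls. Of 13 mesenchymal transition factors tested 9 rose and 1 fell (median 0.83), and 6 rose without MRTFA replicate 1, MRTFA replicate 2 or control replicate 2. Epcam did not pass the limma test (log2 −0.30, adjusted p = 0.663). A change of cell state was not tested.

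**Figure D4:**
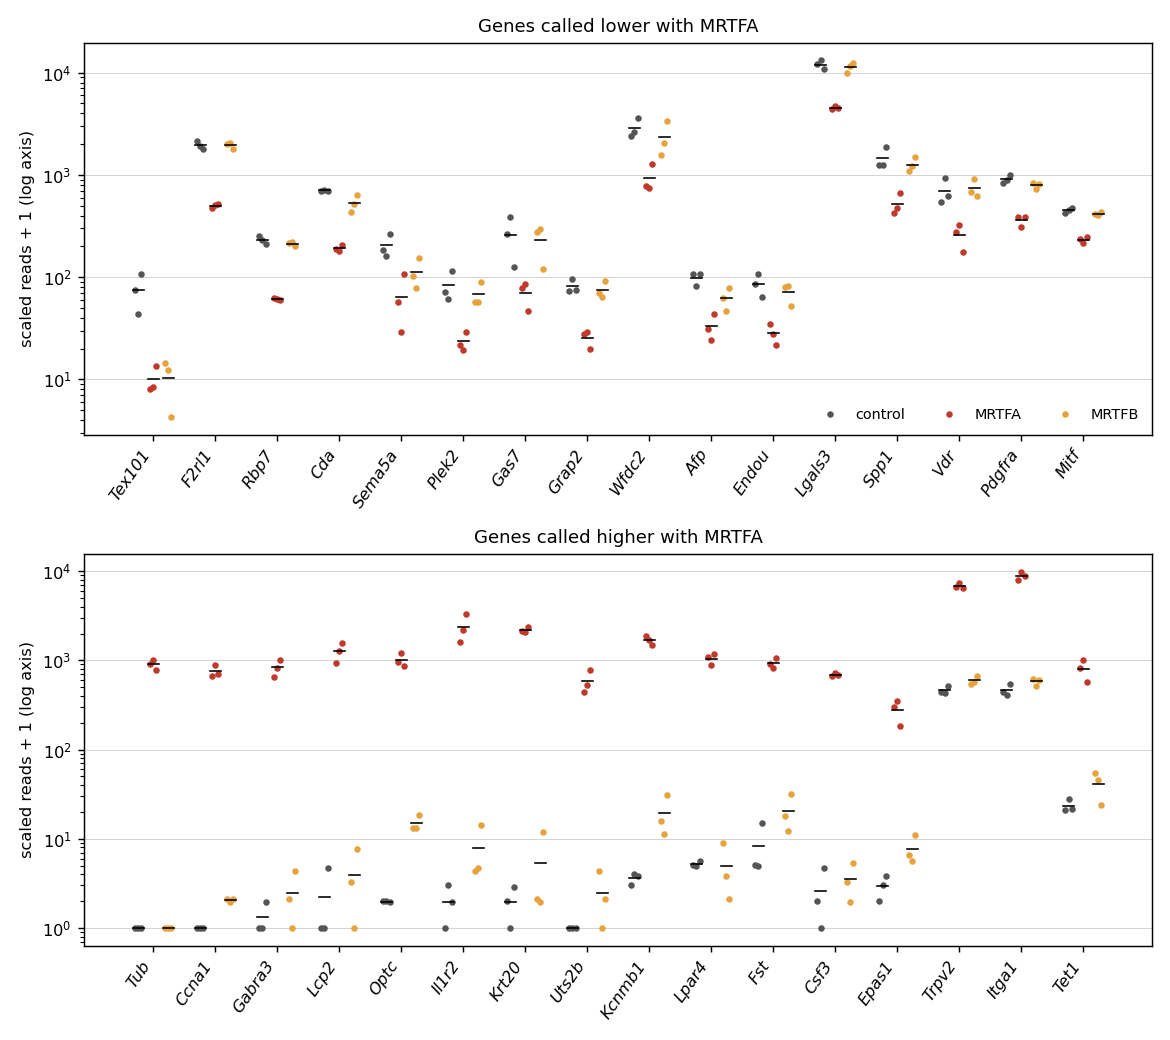
Scaled reads plus 1 (log axis) in each control, MRTFA and MRTFB library of E0771, for genes called lower (upper panel) and higher (lower panel); points are libraries and bars are means of 3. MRTFA values lie apart from control values in every gene shown, and Tex101 is low with MRTFB too.

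A set of genes went from silence to abundance. Of 2816 genes with at most 3 reads over the 3 control libraries, 84 had a mean of at least 50 scaled reads with MRTFA, and 76 of these are protein coding. The mean alone set this limit, and the pseudogene Gm6397 passed it through 1 library (402, 0.929 and 0 with MRTFA). Of these 84, 5 belong to a contractile or cytoskeletal list, among them the myosin chains Myh13, Myl1 and Myh6 with means of 1384, 382 and 147. Other muscle genes lie outside those lists, such as Dmd (dystrophin, 604), Pdlim3 (265), Myh15 (99.8) and Mybpc3 (65.2), named after their values were seen. The rest include genes of other tissues. Tub (chromosome 7, 108950338 to 109034460), the tubby protein of neurons, was at 0 in every control and at 919, 997 and 781 with MRTFA, at least 923-fold higher. Ccna1, a cyclin best known from male germ cells, was at 0 and then at 673, 896 and 700.1, at least 777-fold higher. Ccne2 and Ccnb2, cyclins of S phase and mitosis, fell.

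Others of this set come from unrelated tissues. Gabra3, a subunit of the GABA-A receptor of neurons, had 1 read over the controls and 2518 with MRTFA, a ratio of 2541 with a 95% interval from counting error of 456 to 100413. Optc (opticin), a proteoglycan of the eye, had 3 reads and 3095 (ratio 1041, 356 to 5052). Uts2b, a vasoactive peptide, was at 0 and then at 442, 524 and 776, at least 589-fold higher. Just above that limit of 3 control reads, Muc3a, an intestinal mucin, went from 2.01, 0 and 1.87 to 1601, 1405 and 843 (log2 9.24 ± 0.46, adjusted p = 2.43e-07). None of these genes is known as a part of the contractile machinery. In the reverse direction, 1917 genes had at most 3 reads over the MRTFA libraries, and the highest control mean among them was 6.63 (Asb14).

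Ion channels rose from low levels. Of 11 potassium channel genes tested 7 rose, with a median of 2.59, though 3 of the 11 passed the filter only through the MRTFA libraries and 3 rose when MRTFA replicate 1, 2 or 3 was left out. Kcnmb1, the smooth muscle subunit of the large-conductance channel, had 2.01, 3.0 and 2.80 against 1857, 1711 and 1487 (log2 8.87 ± 0.34, adjusted p = 3.47e-08). Kcnip3, a calcium sensor that also binds DNA, had 0, 1.0 and 2.80 against 893, 758 and 497 (log2 8.47 ± 0.48). Kcnq1, of the slow cardiac current, rose 6.73-fold from 32.6 ± 10.8 (adjusted p = 3.43e-05).

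Among 22 sodium, calcium, TRP and mechanosensitive channel genes 9 rose and 3 fell, with 5 rising without MRTFA replicate 1 or MRTFA replicate 2, and 1 falling without MRTFA replicate 2, MRTFA replicate 3, control replicate 2 or control replicate 3. Of the 22, 3 passed the filter only through the MRTFA libraries. Trpv2 (chromosome 11, 62574486 to 62600515), a cation channel opened by stretch and heat, was already present and rose from 437, 433 and 518 to 6582, 7420.0 and 6510 (14.8-fold, log2 3.89 ± 0.11, adjusted p = 6.82e-09). Its values varied little within either group.

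Among receptors for lysophospholipids and peptides, single genes rose or fell. Lpar4, a receptor for lysophosphatidic acid, had 4.03, 4.01 and 4.67 in the controls and 1079, 889.9 and 1164 with MRTFA (log2 7.63 ± 0.44, adjusted p = 5.03e-07). S1pr2, a receptor for sphingosine-1-phosphate, rose 2.75-fold from 621 ± 108 (adjusted p = 2.22e-05). F2r, a thrombin receptor, fell 1.49-fold (adjusted p = 0.000225) and Ackr3, a scavenger of CXCL12, 1.97-fold (adjusted p = 0.00318). In the whole list of 23 such receptors 9 rose and 4 fell, and 5 rose without MRTFA replicate 2, while 5 of the 23 passed the filter only through the MRTFA libraries. The shares over all genes tested were 20.3% and 18.1%, so the count that fell was near that of all genes.

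Single exchange factors and GTPase-activating proteins, which switch GTPases on and off, changed as well. The exchange factor Plekhg2 had 518, 678 and 760 against 4286, 4246 and 3580 (6.19-fold, adjusted p = 1.62e-06). Arhgef6, which acts on Rac and Cdc42, had 92.6, 59.1 and 131 against 750, 742 and 750 (7.94-fold, adjusted p = 1.65e-05). Kalrn, an exchange factor of neurons, rose from 1.6 ± 1.44 to 161 ± 30.5.

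Arhgap24, which acts on Rac, had 0, 0 and 5.61 against 395, 476 and 389 (log2 7.80 ± 0.71, adjusted p = 1.32e-05), and Dlc1, found at adhesions, rose 3.26-fold (adjusted p = 6.83e-06). Arhgap18 fell 1.97-fold and Arhgap19, a mitotic regulator, 1.65-fold. Rhoj, a GTPase of endothelium, rose 4.08-fold (adjusted p = 7.77e-07) and Rhou fell 1.95-fold, from 7153, 6562 and 6032 to 3356, 3241 and 3518 (adjusted p = 1.16e-05).

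The cytoskeleton outside muscle also had members that fell. In the list of actin assembly and crosslinking 34 of 42 rose and 2 fell (1 without MRTFA replicate 2), but in that of spectrins, ankyrins and ERM proteins 7 of 20 rose and 8 fell, or 4 without MRTFA replicate 2 and 5 without MRTFA replicate 1, control replicate 2 or control replicate 3. In these lists 2 of the 42 and 1 of the 20 passed the filter only through the MRTFA libraries. Ezr (ezrin), which ties actin to the membrane, fell 1.63-fold from 13148 ± 1834 to 8070 ± 622 (adjusted p = 0.00324). Fmnl2, a formin of filopodia, fell 1.62-fold and Ablim1, an actin-binding LIM protein, 2.14-fold. Sept10, a septin, fell 1.70-fold. Sptb, the erythroid spectrin, rose 11-fold (adjusted p = 1.11e-05), and Emd (emerin), at the nuclear envelope, rose 2.24-fold from 7039 ± 436 to 15759 ± 846 (adjusted p = 1.81e-06).

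Secreted ligands and their antagonists were among the genes that rose. Fst (follistatin, chromosome 13, 114452290 to 114458951), which binds and blocks activins, had 4.03, 4.01 and 14 in the controls and 901, 826 and 1074 with MRTFA (log2 7.01 ± 0.45, adjusted p = 1.17e-06). Csf3 (G-CSF), which drives the making of neutrophils, had 1.01, 0 and 3.74 against 672, 722 and 685 (log2 8.36 ± 0.54, adjusted p = 1.1e-06). Tgfb3 had 869, 871 and 682 against 3282, 3179 and 2821 (3.83-fold, adjusted p = 8.51e-07). In these 3 genes the groups lay far apart. Igf1, a growth factor, was at 0 and then at 129, 101.2 and 82.5, at least 107-fold higher.

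Of 24 growth factor ligands 10 rose and 4 fell, with 5 rising without MRTFA replicate 2, 6 without MRTFA replicate 3, and 2 falling without MRTFA replicate 2 or control replicate 2. Of the 24, 2 passed the filter only through the MRTFA libraries. Ligands of the EGF receptor split. Btc (betacellulin) rose 3.85-fold from 149 ± 30.6 (adjusted p = 1.72e-05), and Areg (amphiregulin), a ligand of mammary ducts, fell 2.26-fold from 144 ± 11.2 to 63.8 ± 32.8 (adjusted p = 0.00905). The receptor itself, Egfr, had 433, 308 and 532 against 1924, 1914 and 2482 (4.96-fold, adjusted p = 2.06e-05). Fgfr3, a receptor for fibroblast growth factors, had 49.3, 39.1 and 63.5 against 1360, 1289 and 1020 (24.1-fold, log2 4.58 ± 0.20, adjusted p = 1.13e-07). Pdgfra, a receptor of mesenchyme, fell from 823, 898 and 1007 to 388, 307 and 390 (2.51-fold lower, adjusted p = 2.15e-05), and Met and Erbb3 fell 1.74-fold and 2.0-fold.

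Of 37 TGF-beta and BMP pathway genes 15 rose and 4 fell (median 0.40), and 2 of the 37 passed the filter only through the MRTFA libraries. The intracellular carriers of the 2 branches parted, with Smad1, of the BMP branch, rising 1.98-fold (adjusted p = 5.99e-06) and Smad3, of the TGF-beta branch, falling 1.52-fold (adjusted p = 0.00116). In the Wnt pathway 12 of 29 rose and 3 fell, with 7 rising without MRTFA replicate 1 and 6 without MRTFA replicate 2, and 5 of the 29 passed the filter only through the MRTFA libraries. Wnt7b, a secreted ligand, fell from 3556, 3946 and 3203 to 1739, 1793 and 1426 (2.16-fold lower, adjusted p = 0.0001), while Wls, which ferries such ligands to the surface, rose 1.79-fold (adjusted p = 0.000138). Jag1, a Notch ligand, rose 2.35-fold.

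Inflammatory genes were raised in part. Of 26 NF-kB targets and regulators 9 rose and 2 fell, or 1 when any library but MRTFA replicate 3 was left out. Relb, a subunit of the noncanonical branch, had 304, 350 and 365 against 1762, 1824 and 1635 (5.12-fold, log2 2.36 ± 0.15, adjusted p = 8.34e-07). Ptgs2 (cyclooxygenase-2) rose 11.9-fold but with a wide spread, from 32.2, 34.0 and 55.1 to 226, 363 and 861 (adjusted p = 0.000309). Il1a, an inflammatory cytokine, had 3 reads over the controls and 509 with MRTFA (ratio 171, interval 58.3 to 833). Cd59a, which blocks the complement pore on the cell's own membrane, had 161, 87.1 and 112 against 1950, 2289 and 2064 (17.5-fold, adjusted p = 3.54e-07).

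Interferon-stimulated genes varied widely between replicates within each group. Their list median relative to the control mean was −0.21, −0.85 and 1.22 in the controls and 0.48, −0.30 and 2.83 with MRTFA, and the third replicate was also the highest with MRTFB (1.6). Of 46 tested, 5 rose and 2 fell (1 when any of the 6 libraries was left out), and with DESeq2 10 rose. With the replicate number as a block 26 rose and 2 fell. Gbp2, a guanylate-binding protein, had 29.2, 25 and 87.8 against 482, 420 and 1360 (15.9-fold, adjusted p = 0.000473), so the groups did not overlap even though replicate 3 was highest in both. Nlrc5, the activator of MHC class I genes, had 372, 276 and 942 against 2059, 1956 and 3387 (4.66-fold, adjusted p = 0.00254). Isg20, an exonuclease, fell 1.68-fold (adjusted p = 0.00226).

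Matrix genes differed by list. Of 26 matrix proteases and inhibitors 15 rose and 3 fell, and of 35 matrix glycoproteins 18 rose and 4 fell, with 2 and 5 members that passed the filter only through the MRTFA libraries. Of 29 genes of proteoglycans and glycosaminoglycan synthesis 5 rose and 6 fell (median 0.06), with 3 rising without MRTFA replicate 1 or MRTFA replicate 2. The counts of 5 and 6 were near the shares of 20.3% and 18.1% over all genes tested. Mmp14, the membrane-bound collagenase, had 5207, 6269 and 6104 against 16638, 20269 and 16930 (3.06-fold, adjusted p = 4.17e-06). Adam17, which sheds surface ligands, fell 1.64-fold (adjusted p = 7.66e-05). Col3a1, a fibrillar collagen, rose 4.21-fold from 2562 ± 744 to 10790 ± 324 (adjusted p = 1.07e-05), whereas Col17a1, of the hemidesmosome, fell from 13.1, 12 and 13.1 to 2.99, 2.79 and 2.09 (adjusted p = 0.00253). Of 22 collagens 10 rose and 1 fell, with 6 rising without MRTFA replicate 1 or MRTFA replicate 2, and 4 of the 22 passed the filter only through the MRTFA libraries.

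Cell junction genes changed member by member. Jup (plakoglobin), shared by desmosomes and adherens junctions, had 478, 751 and 470.0 against 5379, 4984 and 3439 (8.12-fold, log2 3.03 ± 0.20, adjusted p = 1.49e-06). Pkp2, a desmosomal plaque protein, rose 4.18-fold (adjusted p = 1.11e-05), and its relative Pkp3 fell 2.62-fold from 169 ± 49.2 to 64.4 ± 12 (adjusted p = 0.00303). Integrin chains did likewise. Itga3, a laminin receptor chain, fell 1.82-fold and Itgb5, of a vitronectin receptor, 1.80-fold, while Itga2b, the platelet chain, rose 9.26-fold from 50.6 ± 2.60 (adjusted p = 8.57e-07). Caveolar genes rose in 8 of 12 cases, among them Sdpr, a cavin, by 17.4-fold (adjusted p = 3.23e-07). Of the 12, 1 passed the filter only through the MRTFA libraries. In this list 1 gene fell, a call lost when any of the 6 libraries was left out and with edgeR or DESeq2.

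Among regulators of chromatin, Tet1, which oxidises methylated cytosine (chromosome 10, 62804570 to 62908996), changed most. It had 20.1, 27.0 and 20.6 in the controls and 820, 1012 and 569 with MRTFA (35.4-fold, log2 5.06 ± 0.32, adjusted p = 1e-06). The Polycomb complex split: Jarid2, which guides it, rose 3.30-fold (adjusted p = 8.74e-07), and its enzyme Ezh2 fell 1.56-fold (adjusted p = 0.00157), as did Bmi1 of the other complex, 1.58-fold (adjusted p = 0.00109). Of the 45 genes of that list 9 rose and 10 fell, near the shares of 20.3% and 18.1% over all genes tested, and 6 fell without MRTFA replicate 2.

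Transcription factors of other lineages changed from various levels. Six5, a homeobox gene, had 24.2, 39.1 and 32.7 against 644, 607 and 371 (16.9-fold, adjusted p = 1.41e-06), and its relative Six4 fell 1.78-fold (adjusted p = 0.00199). Hoxa10 rose 3.93-fold from 292 ± 19.4 to 1148 ± 55.8 (adjusted p = 3.81e-07). Elk1, a ternary complex factor that competes with MRTFA for SRF, had 417, 437 and 469 against 1773, 2162 and 1895 (4.41-fold, adjusted p = 1.07e-06). Vdr, the vitamin D receptor, fell 2.70-fold from 696 ± 200 to 258 ± 74.3 (adjusted p = 0.00145). Mitf, the lineage factor of melanocytes, was low here and fell 1.94-fold (adjusted p = 0.000134).

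Single genes of metabolism and traffic changed as well. Epas1 (HIF-2alpha), an oxygen-responsive factor, had 1.01, 2.0 and 2.80 against 302, 347 and 185 (log2 6.57 ± 0.38, adjusted p = 5.15e-07), while Car12, a carbonic anhydrase induced by hypoxia, fell 2.24-fold (adjusted p = 0.000644) and Slc16a1, a lactate carrier, 1.56-fold (adjusted p = 9.29e-05). Rab27a, a GTPase of secretory granules, had 52.4, 43.1 and 72.9 against 1321, 1452 and 1180 (23.5-fold, adjusted p = 5.15e-07). Elovl6 and Acsl5, of fatty acid elongation and activation, fell 1.96-fold and 1.76-fold. Lists with few calls were ATF4 targets (2 of 24 up and 2 down), sterol synthesis (2 of 28 up and 3 down), autophagy (5 of 37 up and 3 down) and the circadian clock (1 of 18 up and 3 down). With library-total scaling 5 ATF4 targets, 6 sterol genes, 8 autophagy genes and 5 clock genes fell. Without MRTFA replicate 1 the clock genes that fell numbered 0 and the sterol genes that rose 0.

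The direct comparison of MRTFA with MRTFB asks whether the paralog does the same in this line. Levels of the 2 transgenes are not compared here. A difference in dose therefore cannot be told apart from a difference between the paralogs. With MRTFA 2514 genes (19.1%) were higher and 1916 (14.5%) lower than with MRTFB, and leaving out MRTFA replicate 2 left 1570 and 1001. With library-total scaling the counts were 2174 and 3006, and with upper-quartile scaling 2282 and 2644, so the larger direction turned. The lower count also depended on MRTFA replicate 1 (1189 without it), MRTFB replicate 1 (1262) and MRTFB replicate 2 (1072). Mcm7 was lower with MRTFA than with MRTFB (log2 −0.65, adjusted p = 6.89e-05), and so were Lgals3 (log2 −1.31, adjusted p = 4.71e-06) and Ncl (log2 −0.61, adjusted p = 0.0047). The MRTFB means beside them were 8070 ± 493 for Mcm7, 11327 ± 1248 for Lgals3 and 151838 ± 8972 for Ncl, and MRTFB shares its controls with MRTFA. Against control, limma called 7 of 16 smooth muscle contractile genes higher with MRTFB and 0 lower. Of the 45 replication genes it called 0 either way with MRTFB. Of the 84 genes silent in the controls, 58 had at most 3 reads over the MRTFB libraries and 1 had an MRTFB mean of at least 10.

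The effect of MRTFA differed between E0771 and B16F10 for 3138 of 14859 genes (21.1%), tested as the difference of the 2 effects, each with its own controls. The level of the transgene in B16F10 is not given here, and its dose was not compared between the lines. The difference was positive for 1867 and negative for 1271, or 1650 and 1941 with library-total and 1668 and 1786 with upper-quartile scaling. The negative count was 843 without E0771 MRTFA replicate 1, 802 without E0771 MRTFA replicate 2, 815 without E0771 control replicate 1 and 709 without B16F10 MRTFA replicate 2. Lpar4 was at 102 in B16F10 controls and 79.6 with MRTFA there, so the difference between lines was log2 8.03 (adjusted p = 2.86e-07). Gstt1 had 42.1 and 53.4 in B16F10 (difference 4.19, adjusted p = 1.51e-06), and Fgfr3 had 327 and 323 (difference 4.56, adjusted p = 4.14e-07). Jup fell in B16F10, from 837 to 284 (log2 −1.52, adjusted p = 0.0101), and rose in E0771 (difference 4.55, adjusted p = 1.5e-07). Among genes that fell in E0771, Dut had 3376 and 3635 in B16F10 (difference −1.05, adjusted p = 0.000187) and Ncl 66422 and 72866 (difference −0.79, adjusted p = 0.00409). Hspb6 rose in both lines, to 4317 from 432 in B16F10 (adjusted p = 0.000654), by more in E0771 (difference 1.26, adjusted p = 0.0326). Of the 84 genes switched on in E0771, 21 reached a mean of 50 with MRTFA in B16F10 and 5 had such a mean in B16F10 controls already.

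Promoters of the 2 directions were compared by motif, in the 250 bases before the start, on both strands, with a promoter found for 9663 tested genes (12390 promoters, some genes having several). A CArG box lay in 4.03% of promoters of genes that rose at least 2-fold (59 of 1464), 4.35% of those that rose at least 8-fold (21 of 483), 0.828% of those not called (60 of 7246) and 0.25% of those that fell (6 of 2400), against 1.47% of all 32851 in the table. So most genes that rose have no box in this window. The E2F motif (TTTCCCGC or TTTGGCGC) ran the other way, at 1.02% of the genes that rose at least 2-fold, 2.35% of those not called and 3.38% of those that fell (1.30% of the table). The TEAD motif GGAATG was in 14.4%, 10.3% and 9.42% (12.6% of the table). GC content of these 3 classes was 57.7%, 59.7% and 60.3%, and motif shares were not adjusted for it.

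The AP-1 motif TGANTCA was found in 6.97% of promoters of genes that rose at least 2-fold, 4.43% of those not called and 4.42% of those that fell (6.75% of the table). Among the few that fell at least 2-fold it was in 11.8% (18 of 152). Among those that rose at least 8-fold it was in 10.6% (51 of 483), so a high share was not particular to genes that fell. GC content was lower in both of these classes than in genes not called, and the AP-1 shares were not adjusted for it. Genes with deep falls that hold it are shown with 25 bases on either side and the motif in capitals.
Tex101 (chr7:24672098-24672154, minus strand): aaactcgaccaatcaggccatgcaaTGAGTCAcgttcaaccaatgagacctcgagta
Scel (chr14:103513280-103513336, plus strand): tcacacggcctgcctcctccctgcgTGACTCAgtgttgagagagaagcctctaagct
Tmem154 (chr3:84666122-84666178, plus strand): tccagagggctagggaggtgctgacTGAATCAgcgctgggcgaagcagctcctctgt
Scel (sciellin), of the cornified envelope, fell from 25.2, 9.01 and 24.3 to 2.99, 0.929 and 6.27 (log2 −2.30 ± 0.54, adjusted p = 0.00694), and Tmem154, a membrane protein, from 24.2, 20 and 28 to 4.98, 2.79 and 7.31 (log2 −2.12 ± 0.37, adjusted p = 0.00135). A match is a description of these letters and not evidence that a factor binds there.

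**Figure D5:**
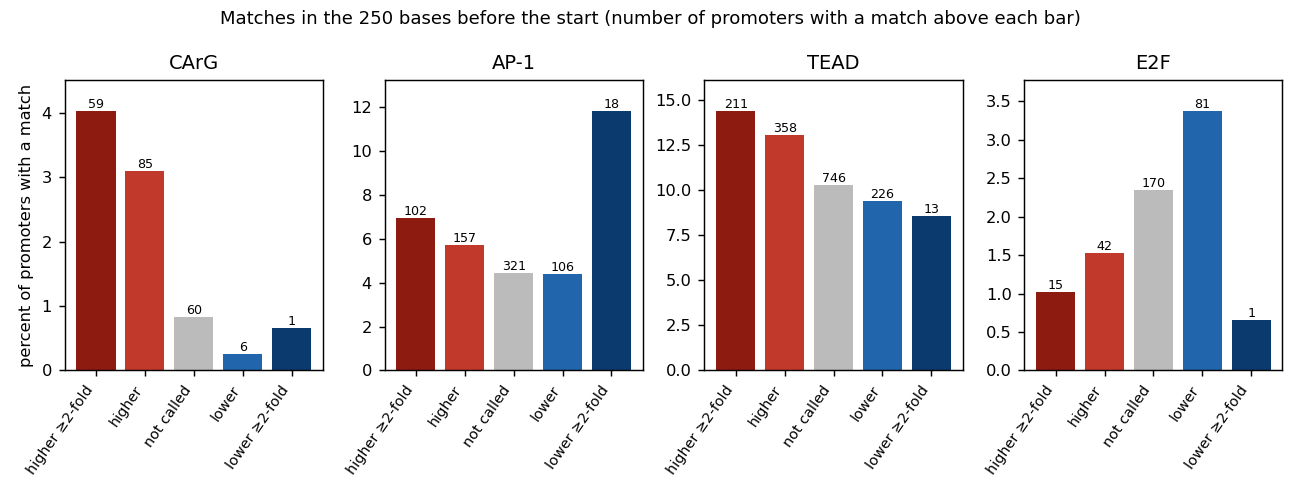
Percent of promoters that hold each motif in the 250 bases before the start, by class of gene, 1 panel per motif with its own axis from 0, and the number of promoters with a match above each bar. Of the 5 classes drawn, the CArG box is most frequent among genes that rose at least 2-fold (4.03%) and the E2F motif among genes that fell (3.38%), while genes that fell at least 2-fold have few matches to either.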

How the data were processed

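RNA from 9 E0771 libraries (3 each of control, MRTFA and MRTFB) was analysed, with 9 from B16F10 used only for the difference between lines. The submitters' processing notes name cutadapt 1.6 for trimming, STAR 2.5.0a and the build mm10 for alignment, HTSeq 0.5.3 for counting and DESeq for scaling. No DESeq version, annotation release, strandedness or counting mode was found in the sources used here. Each deposited value is a signal, namely the reads of a gene that the authors divided by the library's size factor. Whole reads were recovered in every library (all values within 0.001 read), giving 31626969 to 37116655 reads in the 6 libraries compared. Without molecular identifiers, intervals (95%, exact binomial) and floors (3 reads for a count of 0) cover counting error alone.

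A gene entered the test if 3 or more of the 9 libraries had 10 or more scaled reads. The test was limma 3.58.1 (trend) in R 4.3.3 on log2 of the value plus a pseudocount of 1, all 9 libraries in one fit. Two-sided p-values were adjusted by Benjamini and Hochberg's method over all 13189 genes tested, with a threshold of 0.05. edgeR 4.0.16 and DESeq2 1.42.0 were run on the recovered reads, edgeR calling 2796 genes higher and 2112 lower. Tests were checked on simulated data. The difference between lines was fitted on all 18 libraries. No 2 libraries of a group were duplicates.

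The comparison, the 80 gene lists and the motifs were chosen with earlier results of these data known, and lists were described by counts and medians without a test. Named genes were Mkl1, Mkl2 and Srf, the 12 largest falls and rises outside muscle and cytoskeletal lists whose groups did not overlap and whose higher mean reached 50, up to 3 called members each way per list by adjusted p, the 6 largest gains and losses in mean, and the 8 most abundant genes that were silent in controls. Not all of them are printed, some genes and lists are not reported here, and Asb14, Scel, Tmem154, Krt8 and other markers were named after their values were seen. Gene positions are from GENCODE M21 (GRCm38), which holds 18827 of the 18909 identifiers. Motifs were counted in RefSeq promoters (GRCm38.p6) matched by symbol.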

Additional observations from a re-analysis of the deposited data

Results flagged for a closer look

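Groups of 3 were not tested for outlying libraries. The difference between the lines in the MRTFA effect (E0771 minus B16F10, limma) passed the threshold for 3138 genes, and 5 named genes stood out. For F2rl1, which encodes a protease-activated receptor, the difference was −2.51 (adjusted p = 0.000841), but B16F10 had at most a mean of 0.69 scaled reads of it in either group. For Cda (cytidine deaminase) it was −2.50 (adjusted p = 0.000151), with B16F10 means of 65.3 and 105.

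Optc differed by 6.76 (adjusted p = 3.83e-09), with B16F10 means of 29.9 and 146. Krt20 differed by 6.60 (adjusted p = 1.95e-05) and Lcp2 by 6.53 (adjusted p = 0.000246), with B16F10 means of 12.6 and 15.5 under MRTFA.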

How the results depend on the processing

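Which direction held more genes turned with library-total and upper-quartile scaling in all 3 comparisons, and for MRTFA against control also with a minimum value of 50 (2191 higher and 2353 lower) and without MRTFA replicate 3 (2147 and 2230). Without 1 library the genes changed ranged from 3260 to 4621, those higher from 1758 to 2493, those lower from 1502 to 2230 and those at least 2-fold higher from 981 to 1546. A minimum value of 50 left 96 genes at least 2-fold lower, as fewer low genes were tested. For MRTFA against MRTFB, leaving out 1 library gave 2571 to 4392 genes, 1570 to 2525 higher and 1001 to 1867 lower, and library-total scaling gave 3006 lower. For the difference between lines the lower genes ranged from 709 to 1319 without 1 library (709 without B16F10 MRTFA replicate 2) and numbered 1941 with library-total scaling. In 100 bases before the start, 2.32% of promoters of genes at least 2-fold higher held a CArG box. The cause of these moves was not tested.

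Replicate numbers were not read as pairs, since the labels do not say what they stand for. Deviations of same-numbered control and MRTFA libraries correlated at 0.084, 0.461 and 0.525, and those of unlike numbers at −0.517 to 0.255. Each control and MRTFA library correlated best with its own number except MRTFA replicate 1. Same-numbered control and MRTFB libraries correlated at 0.508, 0.459 and 0.553, so a part of the spread was shared by number. With the replicate block 3237 genes were higher and 3168 lower. Among the named genes counted 0 reversed and 1 lost its call (Akr1b8). That count does not cover the losses given above for Lyz2, named as a marker, and for the caveolar gene that fell. Calls were also lost for F2rl1, difference between lines, with DESeq2 (−3.88) and edgeR (−4.66), and for Krt20, difference between lines, with edgeR (4.26). Of 80 list medians, 2 changed sign with TMM, 5 with upper-quartile and 6 with library-total scaling.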
